A study of Mus musculus with 8 samples.

Results

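The 7 luminal progenitor genes Kit, Elf5, Ehf, Aldh1a3, Cd14, Ltf and Lcn2 were followed in Dll1+ and Dll1- mammary tumor cells. They were picked by name from the 53697 genes of the count table, with earlier results of these data known. Of them 7 of 7 were among the 18322 genes with enough counts to be tested. The 8 libraries were RNA-seq of bulk sorted cells from 4 mice. All mice carried MMTV-PyMT, a transgene that drives the polyoma middle T antigen from the mouse mammary tumor virus promoter, on a C57BL/6 background, so that no library comes from normal mammary tissue. The 2 PyMT-Dll1GFP mice reported Dll1 from a knock-in allele with GFP-IRES-Cre-ERT2, and the 2 PyMT-Dll1mCh mice from a BAC-based mCherry transgene. Tumors were digested, CD45, CD31 and Ter119 positive cells were removed, and the reporter signal split the remaining cells of each mouse into 1 Dll1+ and 1 Dll1- library. The ages of the mice are not given in the sources used here.

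Luminal progenitors are the epithelial cells of the mammary duct that can give rise to milk-secreting alveolar cells. They carry the receptor tyrosine kinase Kit, whose ligand is stem cell factor (Kitl). They also express the ETS transcription factor Elf5, which acts with prolactin signalling to drive alveolar fate. Other genes used to recognise them are Ehf, an epithelial ETS factor, Aldh1a3, an enzyme that makes retinoic acid, Cd14, a co-receptor for lipopolysaccharide, and the secreted defence proteins lactoferrin (Ltf) and lipocalin 2 (Lcn2). Dll1 is a ligand of the Notch receptors.

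Library totals ran from 27301396 to 123907626 counts, so that 3 counts corresponded to 0.024 to 0.105 CPM (a gene's count scaled to library size, after TMM normalization), far under the level of every one of the 7 genes. This floor covers counting error only. Dll1 itself was 4.97 to 11.5 times higher in the Dll1+ than in the Dll1- library of each mouse, and the summed level of 5 luminal epithelial markers (Krt8, Krt18, Krt19, Epcam and Cdh1) was 4742 to 8146 CPM. The PyMT-Dll1mCh libraries held more RNA of stromal cells than the PyMT-Dll1GFP libraries. The summed level of 5 fibroblast markers was 682 to 793 CPM in the 4 PyMT-Dll1GFP libraries, 2165 to 2221 CPM in the PyMT-Dll1mCh Dll1+ libraries, and 4953 and 13062 CPM in the PyMT-Dll1mCh Dll1- libraries of mice 1 and 2. In bulk samples, fewer cells of a type and less RNA per cell cannot be told apart.

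The DNA just before the start site is shown for Kit and Ltf, whose levels differed between the sorted cells, and for Elf5, whose level did not pass the test. Sequences are from RefSeq (GRCm38.p6), whose table listed a start site for 4 of the 7 genes (Kit, Elf5, Ltf and Lcn2). Each line gives, in the direction of transcription, the part of the 250 bases before the start site that no annotated exon covers, and capitals mark matches to the ETS letters AGGAAG on either strand.

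Kit, chr5:75574737-75574915, plus strand: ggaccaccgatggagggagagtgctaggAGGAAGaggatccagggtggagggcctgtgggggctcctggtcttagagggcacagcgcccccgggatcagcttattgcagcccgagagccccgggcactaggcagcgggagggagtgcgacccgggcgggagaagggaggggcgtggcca
Elf5, start site 2, chr2:103423818-103424061, plus strand: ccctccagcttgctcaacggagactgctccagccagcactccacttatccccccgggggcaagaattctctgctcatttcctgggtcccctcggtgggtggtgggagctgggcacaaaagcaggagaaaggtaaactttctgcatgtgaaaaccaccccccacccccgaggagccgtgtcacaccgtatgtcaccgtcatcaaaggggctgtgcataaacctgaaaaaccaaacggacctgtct
Ltf, chr9:111019042-111019270, plus strand: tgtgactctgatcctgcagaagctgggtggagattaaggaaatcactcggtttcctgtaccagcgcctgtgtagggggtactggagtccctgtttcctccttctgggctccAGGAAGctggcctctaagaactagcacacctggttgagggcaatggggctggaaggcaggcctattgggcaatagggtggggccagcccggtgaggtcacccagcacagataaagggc

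Over the full 250 bases, the ETS letters were found 1 time before Kit, 1 time before Ltf, 3 times before Lcn2 and 0 times before either of the 2 start sites of Elf5. The Lcn2 window is not printed because annotated exons cover most of it. Of all 32851 start sites in the table, 29.5% held the ETS letters at least once in such a window. The C/EBP letters TTGCNNAA were found 1 time each before Ltf, Lcn2 and both Elf5 start sites, and 9.56% of all windows held them. The letters searched for NF-kB (GGANNNTCC, in 7.27% of windows), STAT (TTCNNNGAA, 7.02%), RBPJ (TGGGAA, 21.6%) and AP-1 (TGANTCA, 6.75%), on both strands, were in none of the windows of these genes. A match is a description of the letters only, and nothing is read from a missing one.

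To ask whether the Dll1+ cells of a tumor carry more luminal progenitor RNA, Dll1+ and Dll1- libraries were compared within each mouse. Over both reporter lines 5 of the 7 genes were higher in Dll1+ cells at an adjusted p under 0.05 (Kit, Cd14, Ltf, Aldh1a3 and Lcn2) and 0 were lower, while 6.98% of all tested genes were higher. In either direction, 5936 of all 18322 tested genes were at an unadjusted p under 0.05 by edgeR, and DESeq2 called 4362. At the adjusted threshold edgeR called 2568 in either direction, of which 1279 were higher in Dll1+ cells. The median log2 fold change of the 7 genes was 0.52, against -0.001 for all tested genes. Because the 7 genes were chosen with earlier results of these data known, setting them against all genes is a description and not a test. The genes other than Elf5 were higher in the Dll1+ library of 4 of 4 mice. In every one of the 7 genes the Dll1+ and Dll1- libraries overlapped in range once both reporter lines were put together. The levels within each line are given gene by gene below.

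**Figure D1:**
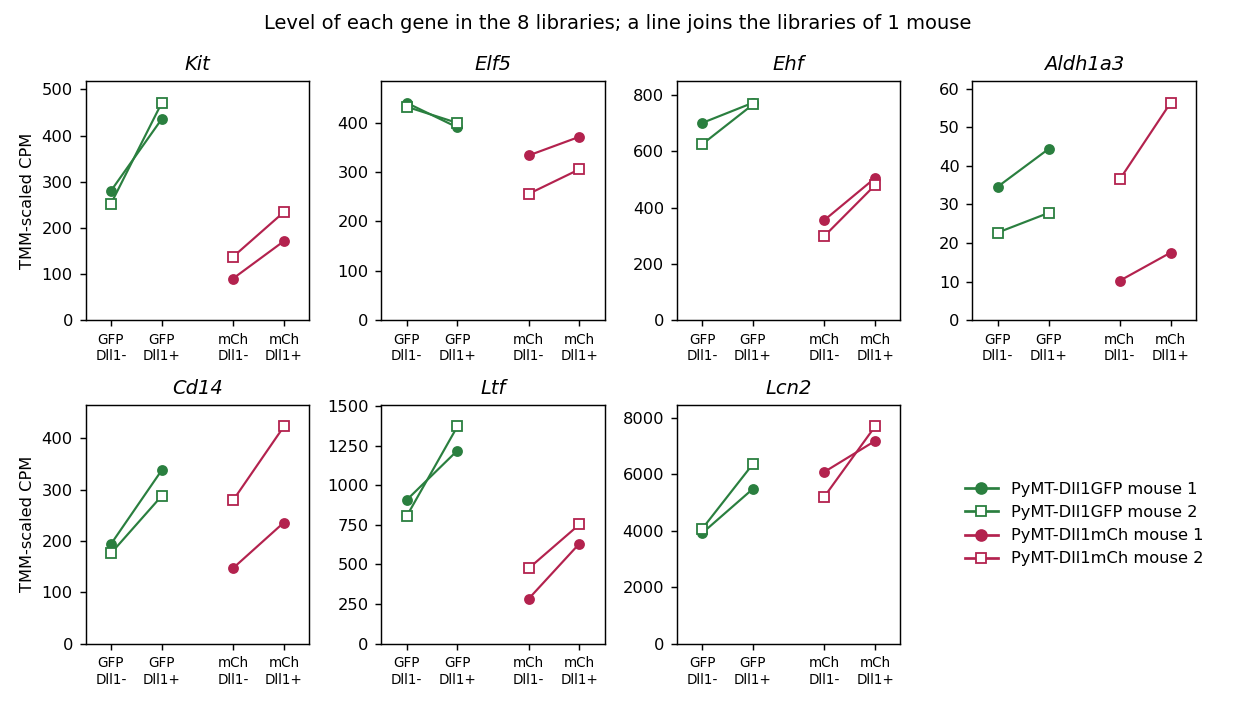
Level of each gene in TMM-scaled CPM (vertical axis, from 0) in the 8 libraries, with a line joining the Dll1- and Dll1+ library of a mouse. The Dll1+ end is the higher one in every mouse for the genes other than Elf5, where it is lower in the PyMT-Dll1GFP mice (441 to 391 and 433 to 400 CPM) and higher in the PyMT-Dll1mCh mice (334 to 372 and 256 to 306 CPM).

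Kit, the receptor, lies at chr5:75574916-75656722 on the plus strand (GRCm38). Its level in the PyMT-Dll1GFP mice was 280 and 252 CPM in Dll1- cells and 436 and 471 CPM in Dll1+ cells of mice 1 and 2. In the PyMT-Dll1mCh mice it was 89.9 and 137 CPM in Dll1- and 171 and 234 CPM in Dll1+ cells. Within each line the lowest Dll1+ library was above the highest Dll1- library. With 2 libraries a side, overlap within a line is a description only, here and for the genes below. The share of all tested genes without overlap was not counted. The fitted log2 fold change was 0.81 ± 0.07 (SE; 95% confidence interval 0.63 to 0.99; adjusted p = 0.00585, edgeR), a ratio of 1.75, and the ratio in single mice ran from 1.56 to 1.91. Kit had the largest fold change of the 7 genes in the fit over both lines, while in PyMT-Dll1mCh mice that of Ltf was larger (log2 0.91 against 0.85).

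Its ligand moved the same way. Kitl averaged 37.0 ± 9.97 CPM in Dll1- and 61.2 ± 16.8 CPM in Dll1+ cells (SD, n = 4) and was higher in 4 of 4 mice (log2 fold change 0.73, adjusted p = 0.00645). Of the 15 genes of the list of the KIT ligand and its signalling partners 2 were higher and 0 lower, Kitl and Sos2, a guanine nucleotide exchange factor for Ras (log2 fold change 0.27, adjusted p = 0.0325). The list's median log2 fold change was -0.015. The phosphatase gene Ptpn6, an inhibitor of KIT signalling, averaged 33.8 CPM in Dll1- and 28.5 CPM in Dll1+ cells (adjusted p = 0.0933), and Pik3r1, a regulatory subunit of PI3-kinase, averaged 492 and 565 CPM (adjusted p = 0.188). Mast cells and melanocytes also carry KIT. The 6 mast cell markers summed to 0.277 to 12.7 CPM and 4 melanocyte markers to 1.37 to 4.01 CPM over the libraries. Of the 4 and 2 tested ones 0 passed over both lines by edgeR or DESeq2. By either tool 0 were at an unadjusted p under 0.05. In PyMT-Dll1mCh mice alone 3 of the 4 mast cell markers were under that unadjusted threshold by edgeR, and 0 passed. The defining mast cell genes Fcer1a and Ms4a2 reached at most 4 counts in any library. The part of mast cells and melanocytes in the Kit difference was not tested.

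The ETS factors Elf5 and Ehf lie near one another on chromosome 2, Elf5 at chr2:103411688-103450989 on the plus strand and Ehf at chr2:103263433-103303278 on the minus strand. Elf5 was 441 and 433 CPM in Dll1- and 391 and 400 CPM in Dll1+ cells of PyMT-Dll1GFP mice, and 334 and 256 CPM in Dll1- and 372 and 306 CPM in Dll1+ cells of PyMT-Dll1mCh mice. It was thus lower in Dll1+ cells of both PyMT-Dll1GFP mice and higher in those of both PyMT-Dll1mCh mice. The groups did not overlap in the PyMT-Dll1GFP line, with Dll1+ below Dll1-, and overlapped in the PyMT-Dll1mCh line. Over both lines its log2 fold change was 0.03 (95% confidence interval -0.20 to 0.26, adjusted p = 0.839), an interval that leaves out a change as large as that of Kit. The difference of its Dll1+ effect between the lines was 0.35 on the log2 scale (95% confidence interval 0.05 to 0.66), with an unadjusted p of 0.0305 and an adjusted p of 0.316 by edgeR, so it did not pass the test.

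Ehf was 701 and 625 CPM in Dll1- and 773 and 767 CPM in Dll1+ cells of PyMT-Dll1GFP mice, and 355 and 298 CPM in Dll1- and 505 and 480 CPM in Dll1+ cells of PyMT-Dll1mCh mice. The groups did not overlap within a line. Its log2 fold change over both lines was 0.41 ± 0.11 (SE) and just missed the threshold (adjusted p = 0.0543), while that in PyMT-Dll1mCh mice alone was 0.60 and passed it (adjusted p = 0.0223). With RLE size factors, with DESeq2, with no filter or with at least 10 counts in every library, Ehf passed the test over both lines too (adjusted p from 0.000681 to 0.0453). Of the 13 other genes of the ETS list 0 passed over both lines with edgeR (1 at an unadjusted p under 0.05) and 1 with DESeq2. Elf3, another epithelial ETS factor, averaged 69.2 CPM in Dll1- and 78.9 CPM in Dll1+ cells (adjusted p = 0.165), and the epithelial factor Spdef 17.9 and 19.3 CPM (adjusted p = 0.658). Ets2 averaged 446 and 533 CPM (adjusted p = 0.119), Etv6 138 and 153 CPM (adjusted p = 0.201) and Elf4, best known from leukocytes, 7.73 and 4.22 CPM (adjusted p = 0.157).

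Prolactin and its receptor act with Elf5 in alveolar differentiation. The receptor Prlr fell by 0.75 on the log2 scale from Dll1- to Dll1+ cells (110 ± 55.4 to 62.0 ± 21.6 CPM, SD, n = 4; adjusted p = 0.0289), and so did Stat5a, the transcription factor it activates (119 ± 29.3 to 90.4 ± 13.4 CPM; log2 fold change -0.37, adjusted p = 0.0321). Both were lower in 4 of 4 mice. Socs2, a feedback inhibitor of cytokine signalling, was higher (log2 fold change 0.33, adjusted p = 0.0491). Of the 9 tested genes of this list 1 was higher and 2 lower by edgeR, and DESeq2 called 6. The milk protein gene Wap averaged 50.3 CPM in Dll1- and 25.5 CPM in Dll1+ cells and was lower in 4 of 4 mice. Wap missed the threshold over both lines (adjusted p = 0.0517) but fell within each. It fell by 1.87 on the log2 scale in PyMT-Dll1GFP mice (adjusted p = 0.0027) and by 0.65 in PyMT-Dll1mCh mice (adjusted p = 0.0184). The milk protein genes did not move as 1. Lalba averaged 364 and 542 CPM and was higher in 4 of 4 mice (log2 fold change 0.60, adjusted p = 0.0658, edgeR). Csn2 averaged 52.9 and 28.4 CPM over both lines (adjusted p = 0.199, edgeR). In PyMT-Dll1GFP mice Csn2 fell by 3.77 on the log2 scale (17.1 to 1.23 CPM, adjusted p = 0.0236, edgeR). In PyMT-Dll1mCh mice its log2 fold change was -0.45 (88.7 to 55.6 CPM, adjusted p = 0.412, edgeR).

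Aldh1a3 oxidises retinaldehyde to retinoic acid and lies at chr7:66390890-66427517 on the minus strand. It was 34.6 and 22.7 CPM in Dll1- and 44.4 and 27.8 CPM in Dll1+ cells of PyMT-Dll1GFP mice, and 10.2 and 36.5 CPM in Dll1- and 17.5 and 56.4 CPM in Dll1+ cells of PyMT-Dll1mCh mice. Mice of the same line differed more from each other than the libraries of 1 mouse did, and the Dll1+ and Dll1- groups overlapped within each line. The ratio within a mouse ran from 1.23 to 1.71, and the log2 fold change was 0.52 ± 0.10 (SE; 95% confidence interval 0.28 to 0.75; adjusted p = 0.0244). This call rests on the pairing of libraries by mouse. With the reporter line as a term in place of the mouse, the adjusted p was 0.543.

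The other retinaldehyde dehydrogenases were at low levels. Aldh1a1 averaged 5.11 CPM in Dll1- and 1.16 CPM in Dll1+ cells (adjusted p = 0.236), and Aldh1a2 averaged 2.69 and 1.47 CPM (adjusted p = 0.364). Of the 17 genes of the retinoic acid list 2 were higher and 1 lower by edgeR, and DESeq2 called 7. Cyp26a1, which breaks retinoic acid down, rose from 1.73 ± 0.838 to 8.10 ± 3.17 CPM (SD, n = 4; log2 fold change 2.26, adjusted p = 0.0155), and Crabp2, a carrier that brings it to the nucleus, rose by 0.31 on the log2 scale (adjusted p = 0.0197). Rdh10, which makes the retinaldehyde that Aldh1a3 uses, fell by 0.46 on the log2 scale (adjusted p = 0.049). Cyp26b1, a second enzyme of breakdown, averaged 6.59 and 4.16 CPM (adjusted p = 0.0691).

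Cd14 helps TLR4 to recognise lipopolysaccharide. It was 194 and 176 CPM in Dll1- and 338 and 288 CPM in Dll1+ cells of PyMT-Dll1GFP mice, and 147 and 279 CPM in Dll1- and 236 and 423 CPM in Dll1+ cells of PyMT-Dll1mCh mice. The groups did not overlap in the PyMT-Dll1GFP line and overlapped in the PyMT-Dll1mCh line, where mouse 2 was higher than mouse 1 in both kinds of cell. The ratio in single mice ran from 1.51 to 1.75, and the log2 fold change was 0.70 ± 0.06 (SE; 95% confidence interval 0.55 to 0.85; adjusted p = 0.00585). With the reporter line as a term in place of the mouse, the adjusted p was 0.125.

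Of the 13 other genes of the CD14 and TLR4 pathway 3 were higher and 1 lower. Tlr4 rose from 20.4 ± 6.86 to 27.2 ± 7.89 CPM (SD, n = 4; log2 fold change 0.43, adjusted p = 0.0184) and Tlr2, a receptor for bacterial lipoproteins, from 47.7 ± 8.56 to 71.2 ± 21.6 CPM (log2 fold change 0.53, adjusted p = 0.0315). The signalling adaptor kinase Irak2 rose by 0.62 on the log2 scale (adjusted p = 0.00534), and its relative Irak1 fell by 0.26 (adjusted p = 0.0255). Ly96, the MD-2 partner of TLR4, averaged 3.74 and 4.33 CPM (adjusted p = 0.335). Macrophages also carry Cd14. In PyMT-Dll1GFP mice 0 of 7 macrophage markers passed the edgeR test between Dll1+ and Dll1- cells, with 1 at an unadjusted p under 0.05 and 1 called by DESeq2 (summed level 84.9 to 107 CPM in Dll1- and 98.1 to 109 CPM in Dll1+ cells), and in PyMT-Dll1mCh mice 7 of 7 were lower in Dll1+ cells (508 to 535 against 223 to 238 CPM), while Cd14 was higher there. The marker under that unadjusted threshold in PyMT-Dll1GFP mice was Cd68, at 8.60 and 7.11 CPM in Dll1- and 12.5 and 10.9 CPM in Dll1+ cells (log2 fold change 0.58, adjusted p = 0.0509), the same direction as Cd14. The part of macrophages in the Cd14 difference was not tested.

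Ltf and Lcn2 encode secreted proteins that bind iron, Ltf directly and Lcn2 through bacterial siderophores. Ltf lies at chr9:111019271-111042767 on the plus strand and was 906 and 803 CPM in Dll1- and 1219 and 1371 CPM in Dll1+ cells of PyMT-Dll1GFP mice, and 283 and 475 CPM in Dll1- and 632 and 753 CPM in Dll1+ cells of PyMT-Dll1mCh mice. The groups did not overlap within a line. Its log2 fold change was 0.75 ± 0.13 (SE; 95% confidence interval 0.44 to 1.07; adjusted p = 0.0188), and the ratio in single mice ran from 1.35 to 2.23.

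Lcn2 lies at chr2:32384633-32388252 on the minus strand and was 3917 and 4068 CPM in Dll1- and 5491 and 6372 CPM in Dll1+ cells of PyMT-Dll1GFP mice, and 6085 and 5204 CPM in Dll1- and 7186 and 7700 CPM in Dll1+ cells of PyMT-Dll1mCh mice. Again the groups did not overlap within a line, and the smallest ratio in 1 mouse was 1.18, in PyMT-Dll1mCh mouse 1. The log2 fold change was 0.49 ± 0.11 (SE; 95% confidence interval 0.23 to 0.74; adjusted p = 0.0364). Neutrophils carry both proteins in their granules. The 9 neutrophil markers summed to 9.13 to 43.8 CPM. Of the 4 tested ones 0 passed between Dll1+ and Dll1- cells over both lines by edgeR or DESeq2. By each tool 1 was at an unadjusted p under 0.05. The granule and surface genes Ly6g, Mpo, Elane and Ngp reached at most 3, 4, 5 and 19 counts in any library. The part of neutrophils in the Ltf and Lcn2 differences was not tested.

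Of the 12 tested genes on the list of iron-binding and secreted defence proteins 2 were higher and 2 lower. The lipocalin 2 receptor Slc22a17 rose from 75.8 ± 18.4 to 96.3 ± 18.9 CPM (SD, n = 4; log2 fold change 0.36, adjusted p = 0.0225), and Nfkbiz, an inducible regulator of NF-kB target genes, from 300 ± 106 to 500 ± 218 CPM (log2 fold change 0.69, adjusted p = 0.0113). The transferrin receptor Tfrc fell by 0.40 on the log2 scale (adjusted p = 0.0304) and the acute-phase protein gene Saa3 by 0.84 (adjusted p = 0.0442). The list's median log2 fold change was -0.28.

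Among the 15 other genes used to mark luminal progenitors 2 were higher and 0 lower by edgeR, with a median log2 fold change of 0.34. At an unadjusted p under 0.05 by edgeR there were 9 of the 15, against 5936 of all 18322 tested genes. DESeq2 called 8 of the 15, against 4362 of all. The tetraspanin gene Tspan8 rose from 21.0 ± 9.9 to 101 ± 54.1 CPM (SD, n = 4; log2 fold change 2.23, adjusted p = 0.00534), and the casein gene Csn3 from 6008 ± 1038 to 10813 ± 2051 CPM (log2 fold change 0.85, adjusted p = 0.0119). Itgb3, the integrin known as CD61, averaged 78.3 CPM in Dll1- and 122 CPM in Dll1+ cells (adjusted p = 0.0544). Trf, the iron carrier transferrin, averaged 7503 and 9776 CPM (adjusted p = 0.0583). Not all genes of the list rose. Cd24a, Lmo4 and Notch3 were each higher in 2 of 4 mice. Their log2 fold changes were -0.05, 0.05 and -0.05 (adjusted p = 0.782, 0.771 and 0.832, edgeR).

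Within the lines, 2 of these 15 genes were higher in Dll1+ cells of PyMT-Dll1GFP mice and 4 in those of PyMT-Dll1mCh mice. In either line 0 were lower. Over all 18322 tested genes, 4900 and 5539 were at an unadjusted p under 0.05 by edgeR in these lines. DESeq2 called 2065 and 2473 of all tested genes. By edgeR 1673 and 2154 were called in either direction, of which 786 and 1009 were higher in Dll1+ cells. On the KIT list 1 was higher and 0 lower in each line, and on the ETS list 0 passed in PyMT-Dll1GFP mice by edgeR (2 at an unadjusted p under 0.05, 0 by DESeq2) and 1 was higher and 1 lower in PyMT-Dll1mCh mice. On the prolactin list 1 was higher and 4 lower in PyMT-Dll1GFP mice, and 0 higher and 1 lower in PyMT-Dll1mCh mice. On the retinoic acid list 1 was higher and 2 lower, and 0 higher and 3 lower. On the CD14 and TLR4 list 3 were higher and 0 lower, and 2 higher and 1 lower. On the list of defence proteins 1 was higher and 3 lower, and 2 higher and 0 lower. The test of the difference between the lines passed for 0 genes of each list with edgeR, with 1 to 6 of a list at an unadjusted p under 0.05, and for 0 to 3 of a list with DESeq2.

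**Figure D2:**
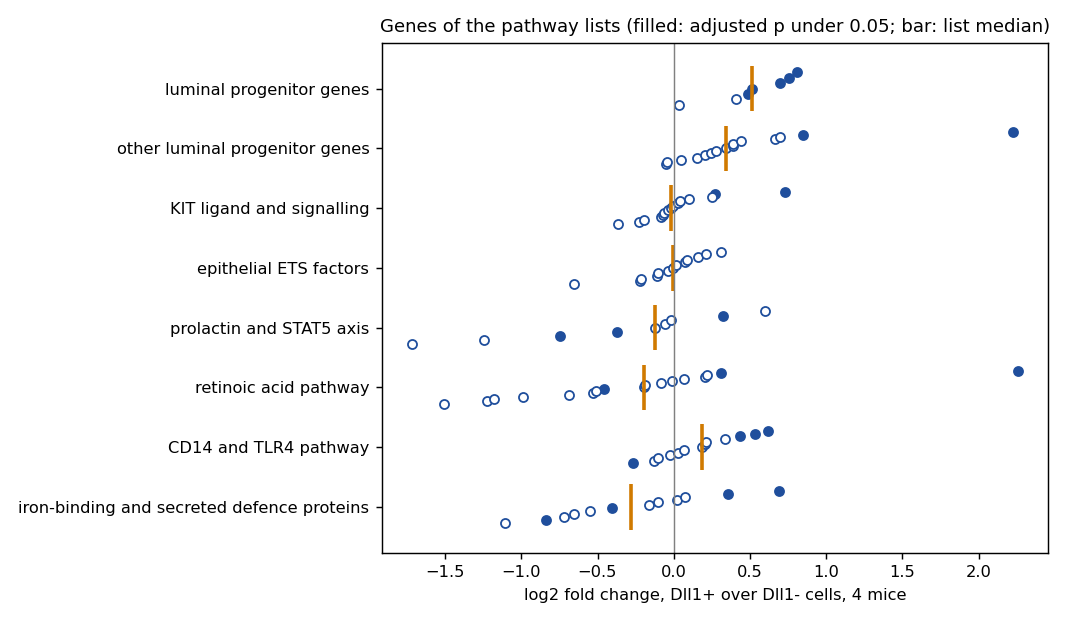
Log2 fold change of Dll1+ over Dll1- cells over 4 mice (horizontal axis) for each tested gene of the 7 luminal progenitor genes and of 7 pathway lists, filled where the adjusted p was under 0.05, with a bar at the median. The 7 genes lie above 0 with a median of 0.52, while the medians of the 7 lists run from -0.28 to 0.34.

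The Dll1+ effect was also tested within each line, over its 2 mice. In PyMT-Dll1GFP mice 2 of the 7 genes were higher in Dll1+ cells and 0 lower, Kit (log2 fold change 0.77, adjusted p = 0.01) and Cd14 (0.76, adjusted p = 0.00631), where 4.29% of all tested genes were higher. Ltf (0.60, adjusted p = 0.0666), Lcn2 (0.57, adjusted p = 0.0637) and Aldh1a3 (0.33, adjusted p = 0.079) did not pass. In PyMT-Dll1mCh mice 5 of the 7 were higher and 0 lower, where 5.51% of all tested genes were higher: Kit (0.85, adjusted p = 0.0106), Aldh1a3 (0.70, adjusted p = 0.0116), Cd14 (0.64, adjusted p = 0.012), Ltf (0.91, adjusted p = 0.022) and Ehf (0.60, adjusted p = 0.0223). Lcn2 (0.40, adjusted p = 0.124) and Elf5 (0.21, adjusted p = 0.18) did not. These 5 calls used a spread estimated over both lines. With the PyMT-Dll1mCh line fitted alone, 0 of the 7 and 0 of all genes passed by edgeR. At an unadjusted p under 0.05 were 5 of the 7 and 5144 of all 18322 genes. The adjusted p ran from 0.0684 for Kit to 0.0857 for Ltf among the 5.

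A gene past the threshold in 1 line and not in the other is not thereby shown to differ between them. The test of the difference itself passed for 0 of the 7 genes with edgeR and for 0 with DESeq2 (2 at an unadjusted p under 0.05), against 0.071% of all tested genes with edgeR. At an unadjusted p under 0.05 it was 3 of the 7 with edgeR (Aldh1a3, Elf5 and Ehf, all with the larger log2 fold change in PyMT-Dll1mCh mice). The intervals of the difference were narrow enough for Kit (-0.27 to 0.42) and Cd14 (-0.40 to 0.17) that a difference of 1 log2 unit between the lines lies outside them. That for Ltf reached 0.84.

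**Figure D3:**
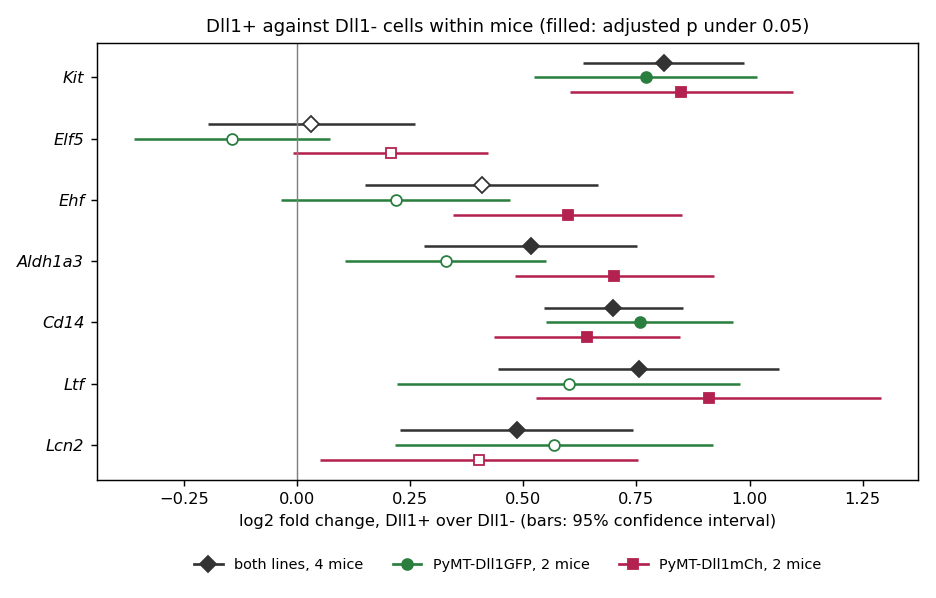
Log2 fold change of Dll1+ over Dll1- cells (horizontal axis) with its 95% confidence interval for each gene, over both lines (4 mice) and in each line (2 mice), with the spread estimated over both lines and points filled where the adjusted p was under 0.05. Kit and Cd14 are filled in all 3 comparisons, and the intervals of Elf5 cross 0 in all 3.

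Fewer genes were called when a mouse was left out, among the 7 and among all tested genes. Over both lines 3 of the 7 genes passed without PyMT-Dll1GFP mouse 1 (Kit, Cd14 and Ltf) and 3 without PyMT-Dll1GFP mouse 2 (Kit, Cd14 and Aldh1a3). Without PyMT-Dll1mCh mouse 1, 2 passed (Kit and Cd14), and without PyMT-Dll1mCh mouse 2, 4 did (Kit, Cd14, Ltf and Aldh1a3). In these fits 433 of 19204, 779 of 18708, 405 of 17740 and 2400 of 18374 genes were called, against 2568 of 18322 with all mice. In each fit 6 of the 7 were at an unadjusted p under 0.05 by edgeR. Leaving out PyMT-Dll1GFP mouse 1 or 2 left 1 mouse in that line, so only effect sizes are given for it. The log2 fold change there was 0.91 and 0.64 for Kit, and 0.72 and 0.81 for Cd14.

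The level of several of the 7 genes also differed between the reporter lines. In Dll1- cells 4 were lower and 1 higher in PyMT-Dll1mCh than in PyMT-Dll1GFP mice, where 17.9% of all tested genes were lower and 18.7% higher. Kit was lower by 1.23 on the log2 scale (266 ± 19.3 against 114 ± 33.6 CPM, SD, n = 2; adjusted p = 0.00839), Ltf by 1.17 (854 ± 73.0 against 379 ± 136 CPM; adjusted p = 0.0116), Ehf by 1.02 (663 ± 53.7 against 326 ± 39.8 CPM; adjusted p = 0.00246) and Elf5 by 0.57 (437 ± 5.42 against 295 ± 55.1 CPM; adjusted p = 0.0297). Lcn2 was higher by 0.50 (3993 ± 107 against 5644 ± 623 CPM; adjusted p = 0.0381). For these 5 genes the libraries of the lines did not overlap. With 2 libraries a side this is a description only, as the share of all tested genes without overlap was not counted. This fit took the libraries of a mouse as independent. With only the 4 Dll1- libraries fitted, Elf5 (adjusted p = 0.0628) and Lcn2 (adjusted p = 0.0837) no longer passed, nor did they with the libraries of each mouse summed (adjusted p = 0.0806 and 0.115).

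In Dll1+ cells 3 of the 7 were lower and 0 higher in PyMT-Dll1mCh mice, where 15.4% of all tested genes were lower and 15.2% higher. Kit was 453 ± 24.7 against 203 ± 44.3 CPM (SD, n = 2; log2 fold change -1.16, adjusted p = 0.0134), Ltf 1295 ± 107 against 692 ± 85.7 CPM (-0.90, adjusted p = 0.0329) and Ehf 770 ± 3.9 against 492 ± 17.8 CPM (-0.65, adjusted p = 0.0125). As a result, Kit was lower in the Dll1+ cells of PyMT-Dll1mCh mice (171 and 234 CPM) than in the Dll1- cells of PyMT-Dll1GFP mice (280 and 252 CPM). The gap for Elf5 was -0.22 (adjusted p = 0.313). Cd14 and Aldh1a3 gave intervals too wide to read a direction, of -0.78 to 0.92 and -1.67 to 1.73 on the log2 scale in Dll1+ cells.

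**Figure D4:**
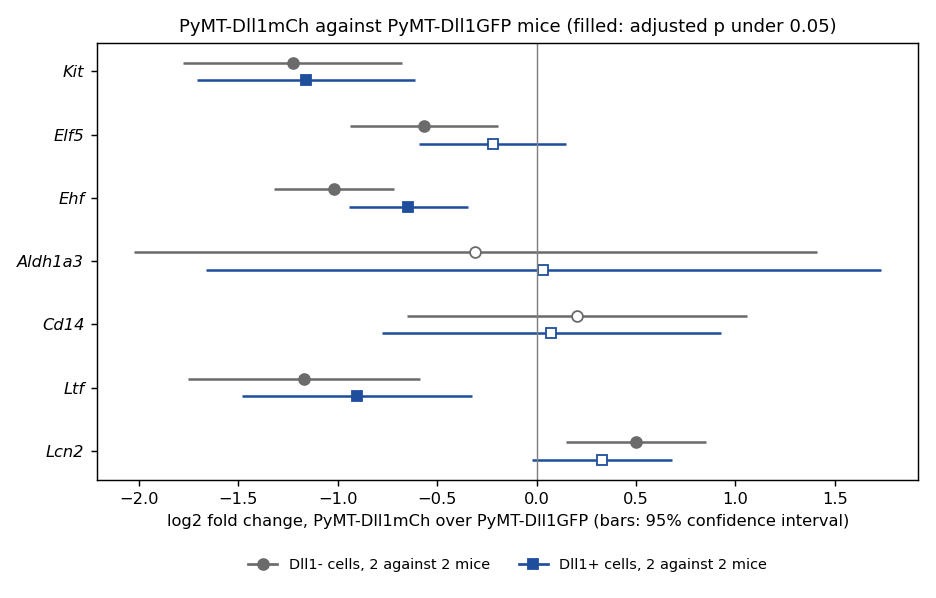
Log2 fold change of PyMT-Dll1mCh over PyMT-Dll1GFP mice (horizontal axis) with its 95% confidence interval in Dll1- and in Dll1+ cells, with 2 mice a line, filled where the adjusted p was under 0.05. Kit, Ehf and Ltf lie below 0 in both kinds of cell, and the intervals of Aldh1a3 are the widest.

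The lines differ in the reporter construct and in the mice, and these cannot be told apart here. No gene of the 7 passed in either kind of cell when a PyMT-Dll1GFP mouse was left out, with 3 and 3 at an unadjusted p under 0.05 in Dll1- and 3 and 2 in Dll1+ cells by edgeR, while 0 of all genes passed. Other markers moved with the lines too. Of 5 fibroblast markers 5 were higher in PyMT-Dll1mCh mice in Dll1- cells and 4 in Dll1+ cells, and of 7 macrophage markers 7 and 5. Of the 4 tested neutrophil markers, a cell type that also carries Ltf and Lcn2, 3 were higher in Dll1- and 2 in Dll1+ cells of PyMT-Dll1mCh mice (summed level 11.8 to 12.8 against 30.0 to 43.8 CPM in Dll1- cells), and of the 4 tested mast cell markers 4 and 4, the opposite direction to Kit. The sum of the 5 luminal markers was 5039 to 5411 CPM in PyMT-Dll1GFP and 4742 to 6121 CPM in PyMT-Dll1mCh Dll1- libraries, so those ranges overlapped. Of the 5 luminal markers 0 passed in either kind of cell by edgeR, with 1 and 0 at an unadjusted p under 0.05 and 1 and 0 called by DESeq2. The part of these cells in the differences between the lines was not tested.

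Epithelial markers also moved between Dll1+ and Dll1- cells. Of 6 markers of hormone-sensing luminal cells 5 were lower in Dll1+ cells over both lines (summed level 180 to 299 CPM in Dll1- and 94.3 to 121 CPM in Dll1+ libraries), and of 6 basal and myoepithelial markers 3 were higher (126 to 461 against 210 to 1162 CPM), among them Krt5, a basal keratin, with a log2 fold change of 2.77 (adjusted p = 0.0073). Their part in the differences of the 7 genes was not tested. In PyMT-Dll1mCh mice 2 of 5 fibroblast markers were lower in Dll1+ cells, 1 of 4 endothelial markers and 3 of 3 erythroid ones.

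**Figure D5:**
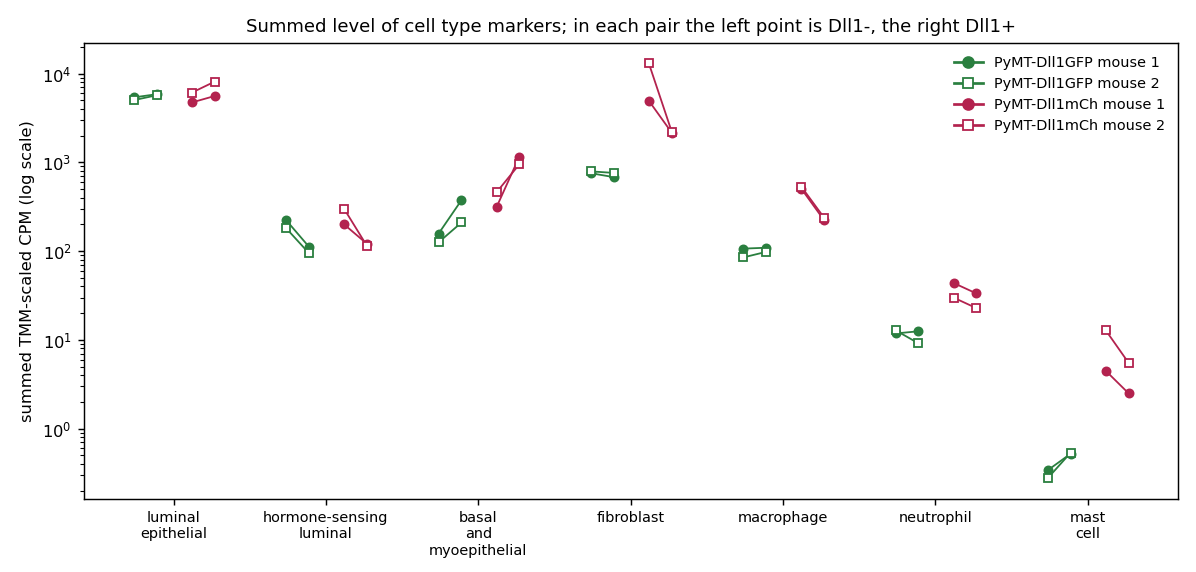
Summed TMM-scaled CPM of 7 marker lists (vertical log axis) in the 8 libraries, with a line joining the Dll1- (left) and Dll1+ (right) library of a mouse. Fibroblast markers are highest in the Dll1- library of PyMT-Dll1mCh mouse 2 (13062 CPM), and hormone-sensing luminal markers are lower at the Dll1+ end in every mouse.

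Of the 5 luminal epithelial markers 0 passed over both lines by edgeR, 4 were at an unadjusted p under 0.05 and 4 were called by DESeq2. They did not all move the same way. The log2 fold changes were 0.31 for Krt8, 0.36 for Krt18 and 0.30 for Epcam, but -0.42 for Krt19 and -0.11 for Cdh1. In PyMT-Dll1GFP mice Krt19 was called lower (log2 fold change -0.72, adjusted p = 0.0195, edgeR). The sum of the 5, of which Krt8 was the largest part (1898 to 3633 CPM), was higher in the Dll1+ library of 4 of 4 mice. Per unit of that sum, Kit was 1.28 to 1.64 times higher in Dll1+ cells of the 4 mice, Cd14 1.14 to 1.61 times and Ltf 1.19 to 1.88 times. Aldh1a3 (1.08 to 1.45 times) and Ehf (1.02 to 1.21 times) were still above 1 in 4 of 4 mice, Lcn2 in 3 of 4 (0.999 to 1.38 times), and Elf5 was below 1 in 4 of 4 (0.814 to 0.944 times). When libraries were scaled to these markers in edgeR, Kit (log2 fold change 0.57, adjusted p = 0.00545), Cd14 (0.46, adjusted p = 0.0139) and Ltf (0.52, adjusted p = 0.0253) passed the test and Aldh1a3 and Lcn2 did not. This scaling moved the median of all tested genes from -0.001 to -0.24, so relative to all genes the place of the 7 genes was about that before scaling.

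Levels of different genes were compared per kilobase of exon, with all annotated exons of a gene merged. Transcripts can be shorter than the merged exons, so the ranks are approximate. Lcn2 was highest with a mean of 2193 ± 518 CPM per kb (SD over 8 libraries). It was followed by Ltf (233 ± 105), Cd14 (150 ± 52.8), Ehf (101 ± 32.7), Elf5 (62.4 ± 10.9), Kit (29.1 ± 15.2) and Aldh1a3 (6.77 ± 3.23). Ltf was above Cd14 in 5 of 8 libraries and Cd14 above Ehf in 6 of 8, and this order followed the groups. Ltf was above Cd14 in every PyMT-Dll1GFP library (for Dll1- cells 263 against 112 and 233 against 102 CPM per kb), but in PyMT-Dll1mCh mice only in the Dll1+ library of mouse 1 (183 against 136). Ehf was above Cd14 only in the PyMT-Dll1GFP Dll1- libraries (126 against 112 and 112 against 102). The other neighbours kept their order in 8 of 8 libraries. Genes with the most similar profile over the 8 libraries, by Pearson's r of log2 CPM among 13212 genes, were Ccnl1 (0.995) and Mfsd9 (0.994) for Kit, Zfp120 (0.991) and Acad9 (0.991) for Elf5, and Bcl2l11 (0.997) and Pyroxd1 (0.994) for Ehf. For Ltf the most similar gene was Kit itself (0.991), followed by Ip6k1 (0.989). For the other genes they were Acvr1 (0.993) and Pvr (0.986) for Aldh1a3, Dach1 (0.984) and Ndel1 (0.977) for Cd14, and Hint2 (0.991) and Tmed4 (0.988) for Lcn2. The 8 libraries fall into 2 lines and 2 kinds of cell, and these values are given as a description.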

How the data were processed

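RNA from lineage-negative tumor cells of 4 mice was sequenced with a stranded TruSeq kit. Salmon (version not given in the sources used here) had been run by the authors against GENCODE M20 (GRCm38.p6). Tximport gave gene totals, and the estimated counts were deposited as whole numbers without normalization. Symbols and coordinates came from a GRCm38 annotation, which matched 53668 of 53697 identifiers.

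Counts were tested with edgeR 4.0.16 (R 4.3.3; TMM, filterByExpr on Dll1 status, robust quasi-likelihood F test) and adjusted by the Benjamini-Hochberg method over 18322 genes, with a threshold of 0.05. Models held Dll1 status and the mouse, a Dll1+ effect for each line and the mouse, or, between lines, 1 mean for each of the 4 groups. Both libraries of a pair came from the same mouse, as labelled; their deviations from the group means correlated at -0.047 in PyMT-Dll1GFP and 0.554 in PyMT-Dll1mCh mice. The scripts were tested on simulated data. The genes and lists were chosen with earlier results of these data known. From each list the 4 genes with the lowest p were named, with Kitl, Elf3, Spdef, Prlr, Stat5a, Aldh1a1, Aldh1a2, Tlr4, Ly96 and Slc22a17. Lalba, Csn2, Cd24a, Lmo4 and Notch3 were named after seeing the data. Likeness, on log2 CPM with a prior count of 2, was sought among genes averaging 1 CPM or more. Alternatives were RLE size factors, DESeq2 1.42.0, other filters, other blocks, fewer libraries and each mouse left out. Fitting the reporter line as a term and scaling to luminal markers were added after seeing the data.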

Additional observations from a re-analysis of the deposited data

Results flagged for a closer look

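The Dll1+ effect on Elf5 had opposite signs in the reporter lines in every mouse. The log2 ratio of its Dll1+ to its Dll1- level was -0.17 and -0.11 in PyMT-Dll1GFP mice 1 and 2, and 0.16 and 0.26 in PyMT-Dll1mCh mice 1 and 2. The difference of the fitted effects was 0.35 on the log2 scale, and its test did not pass (edgeR, adjusted p = 0.316). Scaled to the 5 luminal epithelial markers, the effect was below 0 in both lines (-0.29 and -0.12), while the median of all tested genes was -0.16 and -0.30.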

How the results depend on the processing

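Over both lines, where 5 of the 7 genes were called, the counts were 6 with RLE size factors, DESeq2 and either other filter. Without the mouse block 0 were called (2 at an unadjusted p under 0.05, edgeR), and 0 of all genes. The calls over all tested genes moved too, from 2568 to 2490 to 2930 with RLE size factors or another filter, and 4362 with DESeq2. They were 1352 with the reporter line as a term, 5984 with luminal scaling and 405 to 2400 without a mouse. Of the 7, 3 were called without the block but with the reporter line as a term, 3 when scaled to luminal markers, and 2 to 4 without a mouse. In PyMT-Dll1GFP mice, where 2 were called, DESeq2, no filter and the line fitted alone gave 4 each, no block 0 (3 unadjusted), and leaving out a mouse 0 to 5. In PyMT-Dll1mCh mice, where 5 were called, no block gave 0 (4 unadjusted), the line fitted alone 0 (5 unadjusted; 0 of all genes called), luminal scaling 2, and leaving out a mouse 3 to 4. Between lines in Dll1- cells, luminal scaling, only the 4 libraries compared and summed libraries gave 3 of 5 each (Elf5 and Lcn2 lost their calls in the last pair), and leaving out a mouse 0 to 5; in Dll1+ cells leaving out a mouse gave 0 to 4. A line left with 1 mouse was assumed to vary like the other. The difference between lines stayed at 0 of 7 under every alternative run. The cause of these shifts was not tested.

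Of 455 alternative values of single genes 353 kept their direction and side of the threshold, 65 lost the call, 19 gained one and 18 changed direction, none of those 18 past the threshold in the fits reported above. With luminal scaling, Elf5 turned to -0.21 over both lines and -0.12 in PyMT-Dll1mCh mice, the difference for Kit to -0.10, and in Dll1+ cells between lines Aldh1a3 to -0.31 and Cd14 to -0.20. Aldh1a3 there was -0.0081 with only the 4 libraries compared and -0.10 with summed libraries. Without a mouse, Elf5 over both lines ran from -0.0455 to 0.10, the difference for Kit from -0.0554 to 0.21, Aldh1a3 between lines from -1.44 to 0.35 in Dll1- and from -1.04 to 0.61 in Dll1+ cells, and Cd14 from -0.29 to 0.59 and from -0.40 to 0.40.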
